A study of Macaca fascicularis with 15 samples.

Results

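Neural retina dissected from 2 regions of the macaque eye was compared, over all genes, with the whole eye. The regional tissue came as 4 libraries of central retina and 3 of peripheral retina, and the whole eye as 2 libraries. These 9 libraries are the comparison, out of 11 with a table in the series. The other two are whole retina, used as a second reference, and 4 further records of whole eye and whole retina were not analysed here. The animals were Macaca fascicularis (the cynomolgus or crab-eating macaque), wild type in strain and genotype, with no treatment named. A single eye supplied each sample, in RNALater, a solution that preserves RNA, and messenger RNA was isolated for RNA sequencing. The labels call the eye and retina samples biological replicates but do not say which animal each region came from. The p-values thus rest on the spread among libraries of a group, part of which can be technical. The labels give no date or batch, and regional tissue and whole tissue were never prepared as the same kind of sample, so tissue and preparation cannot be told apart. The groups are called regional retina (central and peripheral retina, each with the same weight) and whole eye below.

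The neural retina is a thin sheet of light-sensitive and nerve cells at the back of the eye. Rods and cones pass their signal through ribbon synapses to bipolar and horizontal cells, amacrine cells shape it, and ganglion cells send it to the brain, with Müller glia spanning the sheet. Behind it lie the pigment epithelium, which renews the visual pigment and supports photoreceptors, and the choroid, a layer of vessels, pigment cells and stroma. The front of the eye holds the lens, the cornea with its surface epithelium, the iris and the ciliary body with their smooth muscle, and the trabecular meshwork that drains the aqueous humour. The sclera and the remains of the eye muscles enclose it all. A library of the whole eye can take in all of these tissues, but the tissue label reads only Eye.

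Values are the normalized values the authors deposited, and a difference is a difference of means of log2(value + 1) with its standard error. A gene was tested where the mean value reached 1 in at least 1 of the 4 groups, which kept 11933 of 12995 entries. A call has an adjusted p under 0.05 in limma. Listed values summed to between 299480 and 335644 per regional library and to 356677 and 375035 in whole eye. Between 313 and 501 genes were listed at 0 in a regional library and 171 and 178 in whole eye. Of the tested entries, 2426 have a name that begins another gene's name or the reverse (RPE and RPE65, for example), and some of these differ many times over between libraries of 1 group, as PMP2 did at 1.08 and 75.1 in whole retina. Among the genes named below this holds for RGS9BP, GPR179, PCP2, SOX2, CLDN19, KCNJ13, RPE65, TYR, TYRP1, TRIM29, ABI3BP, MYH11, MB, MYH1, CDH19, GJA1, TYROBP, P2RY12, CPLX3, SLC2A1, RPL23, HSPB1, PMP2, MAG, MOG, CPA3, KIT and LYZ, whose values are uncertain for that reason. The list counts below include such names, for example 4 of 8 tested for smooth muscle, 4 of 9 for melanin, 10 of 27 for ribosomal proteins and 2 of 8 for bipolar cells. They also made up 2 of 3 for Schwann cells, 2 of 3 for mast cells, 3 of 5 for oligodendrocytes and 4 of 9 for macrophages and microglia. For genes of both photoreceptors they were 5 of 17 and for synapse genes 5 of 14. Without them 4 of 4 smooth muscle, 5 of 5 melanin and 14 of 17 ribosomal protein genes were lower, and 2 of 6 bipolar cell genes higher. The Schwann and mast cell counts then rest on 1 gene each and the oligodendrocyte count on 2, all lower. Of macrophage and microglia genes 5 of 5 were then lower. Of genes of both photoreceptors 8 of 12 and of synapse genes 7 of 9 were then higher. Crystallin, globin, keratin, actin and ribosomal protein genes have close copies, and how reads shared between copies were counted is not given in the sources used here.

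Most rod, shared photoreceptor and synapse genes were higher in regional retina. Of 15 cone genes 7 were higher and 1 lower as deposited, and 11 were higher under each of the 3 other scalings given below. Of interneuron genes, 4 of 8 for bipolar cells, 1 of 3 for horizontal cells and 4 of 11 for amacrine cells were higher as deposited. There 1 bipolar and 1 amacrine cell gene were lower. After quantile normalization the numbers higher were 5, 2 and 8. Most tested genes of lens, cornea, stroma, muscle, pigment cells and blood were lower. Over all tested genes, of whatever tissue, 243 were lower by 3 log2 units or more. In all, 2168 genes (18.2% of those tested) were higher and 3878 (32.5%) were lower in regional retina. Only 12 of the higher genes differed by 2 log2 units or more, against 627 of the lower genes. A difference of 5 or more was seen for 64 lower genes and 0 higher genes. For genes near 0 in regional retina these sizes depended on the processing, which included other pseudocounts. Over the 22 alternatives the difference of LIM2 ranged from -10.33 to -4.05 and that of KRT4 from -10.26 to -3.95. Counts by size hold for log2(value + 1) only. The 7 regional libraries lay wholly above both whole eyes for 1918 genes (16.1%) and wholly below them for 3871 (32.4%). Central retina alone was higher than whole eye for 2509 genes (21.0%) and lower for 4083 (34.2%), and peripheral retina alone was higher for 1471 (12.3%) and lower for 3296 (27.6%). Both regions passed in the same direction for 1219 higher genes (10.2%) and 2854 lower genes (23.9%). The direction of the balance depends on the scaling, as higher genes made up 35.9% of the calls with the values as deposited, 51.2% with trimmed-mean scaling factors, 51.1% after centring on the median and 61.2% after quantile normalization. The median difference over all tested genes was -0.14 as deposited and 0.125 after quantile normalization, so that differences of that size depend on the scaling.

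**Figure D1:**
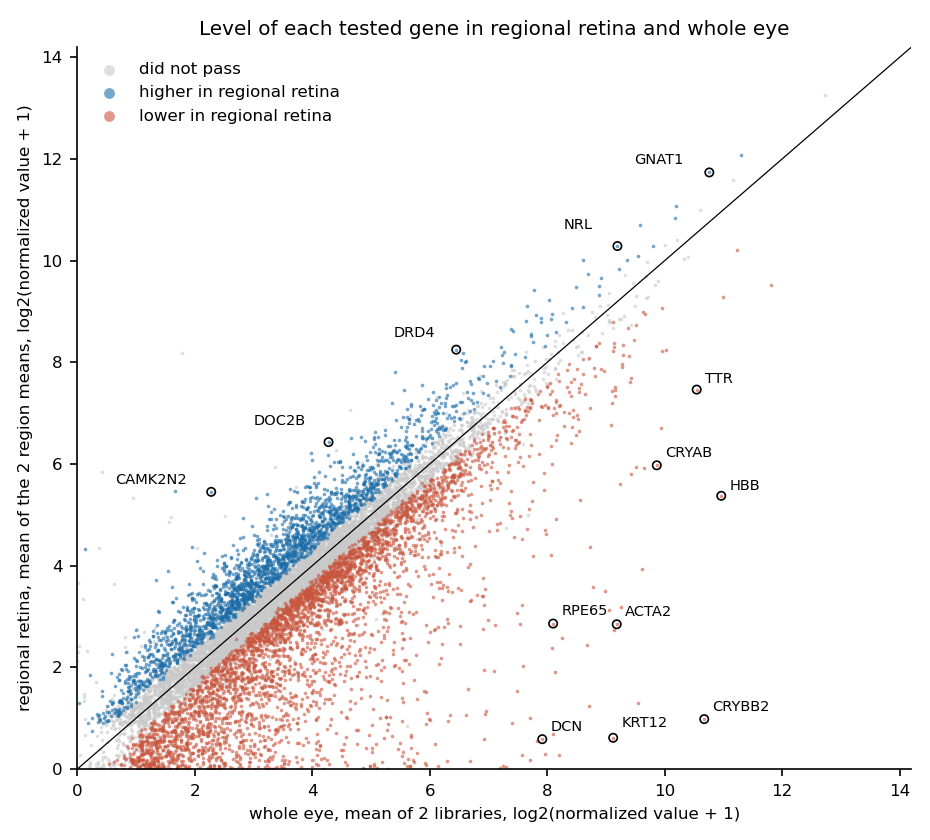
Each point is 1 tested gene, placed by its mean log2(normalized value + 1) in whole eye (horizontal axis) and in regional retina (vertical axis); colours mark the limma calls and the line marks equal levels. The 2168 higher genes lie close above the line, while the 3878 lower genes fan out towards the horizontal axis, where CRYBB2, KRT12 and DCN lie.

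The 12 higher genes described first had the largest differences among called genes whose group with the higher mean reached 10, with all regional libraries above both whole eyes, a gene symbol, and a name that neither repeats nor shares its start with another. Of all higher genes, 2 differed by 3 log2 units or more, up to 3.83, and these do not meet those conditions. CAMK2N2, an inhibitor of the calcium-dependent kinase CaMKII, had values of 62.1, 56.8, 65.8 and 69.3 in central retina and 25.9, 20.3 and 19.9 in peripheral retina, against 3.64 and 4.07 in whole eye. No regional library came near the whole eyes, and the mean was 11.1-fold higher, a difference of 2.98 ± 0.23 (SE; limma adjusted p = 1.34e-06). SCRT2, a transcription factor of young neurons, had a lowest, median and highest regional value of 9.29, 22.3 and 34.1, against 3.57 and 2.17, a difference of 2.29 ± 0.19 (limma adjusted p = 2.42e-06). In both genes the 4 central libraries were above the 3 peripheral ones. DOC2B, a calcium sensor of vesicle release, showed no such gap between the regions, with 72.3, 85.5 and 99.96 as the lowest, median and highest regional value against 18.7 and 18.1 in whole eye. Its difference was 2.15 ± 0.12 (limma adjusted p = 1.41e-07). The netrin-like adhesion protein NTNG2 (1.84 ± 0.13), the phospholipase PLCH2 (1.84 ± 0.12), the carbohydrate-transferring enzyme B3GAT1 (1.80 ± 0.17) and the dopamine receptor DRD4 (1.79 ± 0.21) followed. DRD4, which serves photoreceptors in retina, ranged from 218 to 354 in regional libraries and stood at 97.4 and 75.5 in whole eye. The apical polarity gene CRB2 (1.76 ± 0.16), RPS6KL1 (1.72 ± 0.12), the photoreceptor cyclase GUCY2D (1.71 ± 0.21) and the ciliary rootlet gene CROCC (1.68 ± 0.15) completed the group, all with regional libraries above both whole eyes. The potassium channel partner KCNIP3 (1.66 ± 0.48) is the last of these 12, but its whole eye values were 6.46 and 1.45 and its call was lost without whole eye replicate 2 (limma adjusted p = 0.258) and with a replicate block (0.0621).

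Rod genes were mostly higher in regional retina. Of 13 rod genes tested, 9 were higher and 1 was lower, with a median difference of 0.84 against -0.14 over all genes. NRL, the transcription factor that sets rod identity, had values of 1279, 843, 1091 and 1013 in central retina, 1243, 1578 and 1491 in peripheral retina and 544 and 626 in whole eye. Every regional library was above both whole eyes, and the difference was 1.07 ± 0.18 (limma adjusted p = 0.000483). GRK1, the kinase that quenches the light response of rods, had the largest difference of the rod list, 1.55 ± 0.15 (limma adjusted p = 7.92e-06), from 71.7, 86.3 and 105 as its lowest, median and highest regional value against 29.7 and 27.6. The channel subunit CNGB1 (0.84 ± 0.18) and the exchanger SLC24A1 (0.93 ± 0.15) were also higher. GNAT1, the rod transducin, ranged from 1963 to 5059.8 in regional libraries and stood at 1794 and 1668 in whole eye, a difference of 0.93 ± 0.24 (limma adjusted p = 0.00831). That call was lost without whole eye replicate 1 (adjusted p = 0.0547) or replicate 2 (0.0906). SAG, the rod arrestin, did not pass at 0.35 ± 0.22 (limma adjusted p = 0.203). GNGT1, the gamma subunit of rod transducin, was the exception below, with 94.0 to 106 in central retina and 163 to 204 in peripheral retina against 180.4 and 411 in whole eye. Its difference of -1.01 ± 0.27 (limma adjusted p = 0.00976) was lost without whole eye replicate 2 (adjusted p = 0.228) and after quantile normalization (0.0672).

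Some cone genes were higher too. Of 15 tested, 7 were higher and 1 lower, with a median of 0.39, and the number higher was 4 without whole eye replicate 2 and 11 under each of the 3 other scalings. KCNV2, a potassium channel subunit of photoreceptors, ranged from 351 to 500.4 in regional libraries against 263 and 210.2 in whole eye, a difference of 0.90 ± 0.15 (limma adjusted p = 0.000514). The cone exchanger SLC24A2 (0.88 ± 0.15) and the cone channel subunit CNGA3 (0.77 ± 0.16) were higher too. OPN1SW, the short-wavelength cone opsin, had values of 123 to 180.1 in central retina but 68.0, 78.2 and 74.6 in peripheral retina, beside 73.5 and 54.1 in whole eye. Its average difference of 0.73 ± 0.17 (limma adjusted p = 0.0038) thus came with peripheral libraries that overlapped the whole eyes, and the call was lost without whole eye replicate 2 (adjusted p = 0.0789) and with all 7 libraries weighted equally (0.0957). CNGB3, the other subunit of the cone channel, was lower, at 3.74 to 7.78 in regional libraries against 10.3 and 13.5, a difference of -0.92 ± 0.19 (limma adjusted p = 0.00185).

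Genes used by both kinds of photoreceptor were higher in 12 of 17 tested and lower in 0, with a median of 0.72. GUCY2D, the guanylate cyclase that restores the dark state after light, had values of 76.1, 38.1, 54.0 and 49.7 in central retina, 49.0, 68.0 and 59.1 in peripheral retina and 15.3 and 17.2 in whole eye. RGS9BP, the anchor of the complex that shuts off transducin, differed most, by 2.40 ± 0.22 (limma adjusted p = 4.98e-06). CRX, a transcription factor of all photoreceptors, ranged from 215 to 306 against 84.7 and 110.4, a difference of 1.41 ± 0.15 (limma adjusted p = 1.68e-05). The cilium protein TULP1 (1.18 ± 0.12) and the outer segment cadherin CDHR1 (1.14 ± 0.12) were higher as well.

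Genes of the photoreceptor's ribbon synapse were higher as well. In the list of ribbon and conventional synapse genes 9 of 14 tested were higher and 0 lower, with a median of 0.69. CACNA1F, the calcium channel of the ribbon terminal, ranged from 77.6 to 105 against 40.0 and 24.4, a difference of 1.48 ± 0.16 (limma adjusted p = 1.94e-05). CABP4, the calcium-binding partner of that channel, ranged from 150.2 to 207 against 75.9 and 89.5 (1.16 ± 0.15). VAMP2, a vesicle fusion protein, was higher by 1.00 ± 0.12, and the complexin CPLX3 by 0.82 ± 0.12.

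Interneuron genes were higher in smaller number. Of 8 bipolar cell genes tested, 4 were higher and 1 lower, with a median of 0.50. GPR179, a receptor of the light-on bipolar cascade, differed by 0.83 ± 0.15. The kainate receptor subunit GRIK1 (0.75 ± 0.18) and the Purkinje cell protein PCP2 (0.72 ± 0.20) lost their calls without whole eye replicate 1 (limma adjusted p = 0.057 and 0.103). PCP2 also lost its call with all 7 libraries weighted equally (0.164), its central values of 175 to 339 being far above the peripheral ones of 101 to 115. TRPM1, the channel at the end of the same light-on cascade, was lower at -0.41 ± 0.15 (limma adjusted p = 0.0374), a call lost under 13 of the 22 alternatives, among them without whole eye replicate 1 (0.248). Of 3 horizontal cell genes, the transcription factor PROX1 was higher (0.64 ± 0.15), and its call was lost without whole eye replicate 1 (limma adjusted p = 0.0754).

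Amacrine cells use glycine or GABA, and 4 of 11 genes tested were higher and 1 lower, with a median of 0.39. The number higher was 8 after quantile normalization. SLC32A1, which loads GABA and glycine into vesicles, ranged from 24.5 to 36.6 against 12 and 13.7 (1.09 ± 0.12; limma adjusted p = 2.44e-05). C1QL2, a synapse-organising protein placed in this list, differed by 1.42 ± 0.15, the GABA-making enzyme GAD2 by 0.76 ± 0.14 and the gap junction protein GJD2 by 0.71 ± 0.14. SLC17A8, the glutamate transporter of one amacrine type, was lower at 2.01 to 3.28 against 4.22 and 5.08 (-0.65 ± 0.13), and did not pass after quantile normalization (limma adjusted p = 0.117). Of 15 glutamate, GABA and glycine receptor genes, 4 were higher and 1 lower, with a median of 0.19, and 8 were higher after quantile normalization. Over all tested genes 18.2% were higher and 32.5% lower. GABRR2, a GABA receptor subunit of bipolar cells, differed by 1.15 ± 0.12, the glycine receptor GLRA1 by 1.01 ± 0.18 and GABRB2 by 0.66 ± 0.15. The AMPA receptor subunit GRIA2 was higher by 0.50 ± 0.16, a call lost without whole eye replicate 1 (limma adjusted p = 0.214). GRIA1, another subunit, was lower on average (-0.71 ± 0.13), with central values of 4.05 to 5.17 below the whole eyes at 13.1 and 15.8 and peripheral values of 14.1 to 18.1 overlapping them. Its call was lost with all 7 libraries weighted equally (limma adjusted p = 0.229).

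Most ganglion cell genes were higher than whole eye in central retina and few were in peripheral retina. Of 9 tested, 3 were higher in the average of the regions, 8 in central retina and 1 in peripheral retina, where 3 were lower. SNCG, a synuclein of ganglion cells, had 1217, 1396, 1802 and 2509.8 in central retina, 388, 214 and 415 in peripheral retina and 461 and 320.0 in whole eye. NEFM, a neurofilament of their axons, had 219 to 391 in central retina and 31.4 to 57.7 in peripheral retina against 53.1 and 70.8. The average calls on SNCG (0.94 ± 0.31) and NEFM (0.75 ± 0.26) were lost without whole eye replicate 2 (limma adjusted p = 0.243 and 0.0571), and that on NEFM without replicate 1 (0.236). With all 7 libraries weighted equally neither passed (0.287 and 0.405). The neurofilament NEFL did not pass on average (0.42 ± 0.26; limma adjusted p = 0.191) but did after quantile normalization (0.69; limma adjusted p = 0.0397). ISL2, a transcription factor of ganglion cells, was higher in both regions at 3.88 to 5.24 against 2.39 and 1.94 (0.75 ± 0.12). Without whole eye replicate 2 the list count fell to 1.

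Across all genes, 27 (0.226%) passed in opposite directions in the 2 regions, and in 26 of them central retina was above and peripheral retina below the whole eye. The regions themselves differed for 1493 genes higher (12.5%) and 1045 lower (8.76%) in central retina. NRN1, a neuritin that promotes neurite growth, had 57.5, 82.0, 80.9 and 107 in central retina, 23.7, 13.3 and 20.1 in peripheral retina and 30.6 and 36.2 in whole eye. It differed from whole eye by 1.24 ± 0.25 in central retina (limma adjusted p = 0.00143) and by -0.81 ± 0.26 in peripheral retina (0.0285). SLC17A6, the glutamate transporter of ganglion cell vesicles, differed by 1.14 ± 0.20 and -0.71 ± 0.21. STMN2, a microtubule regulator of growing axons, differed by 0.93 ± 0.21 and -0.79 ± 0.22. KRT7, a keratin of simple epithelia, had 12.9 to 28.8 in central retina and 2.49 to 4.90 in peripheral retina against 9.67 and 8.41 in whole eye (1.00 ± 0.27 and -1.11 ± 0.29). PPP1R1C (0.67 ± 0.26 and -1.19 ± 0.27), MFSD6 (0.77 ± 0.19 and -0.57 ± 0.20), DNCI1 (0.67 ± 0.19 and -0.60 ± 0.20) and GPRC5B (0.57 ± 0.14 and -0.57 ± 0.15) had the same arrangement. In these 8 genes, chosen for this arrangement, every central library lay above both whole eyes and every peripheral library below them. Of the 8 peripheral calls, 7 were lost without whole eye replicate 2, 4 without replicate 1, 5 without peripheral retina replicate 2 and 6 after quantile normalization. Of the 8 central calls, 2 were lost without whole eye replicate 1 and 2 without replicate 2, and that on PPP1R1C was lost under 10 of 20 alternatives, among them the replicate block (limma adjusted p = 0.144) and leaving out any of central libraries 2, 3 and 4 (0.0927, 0.0601 and 0.0947) or peripheral library 3 (0.0576).

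**Figure D2:**
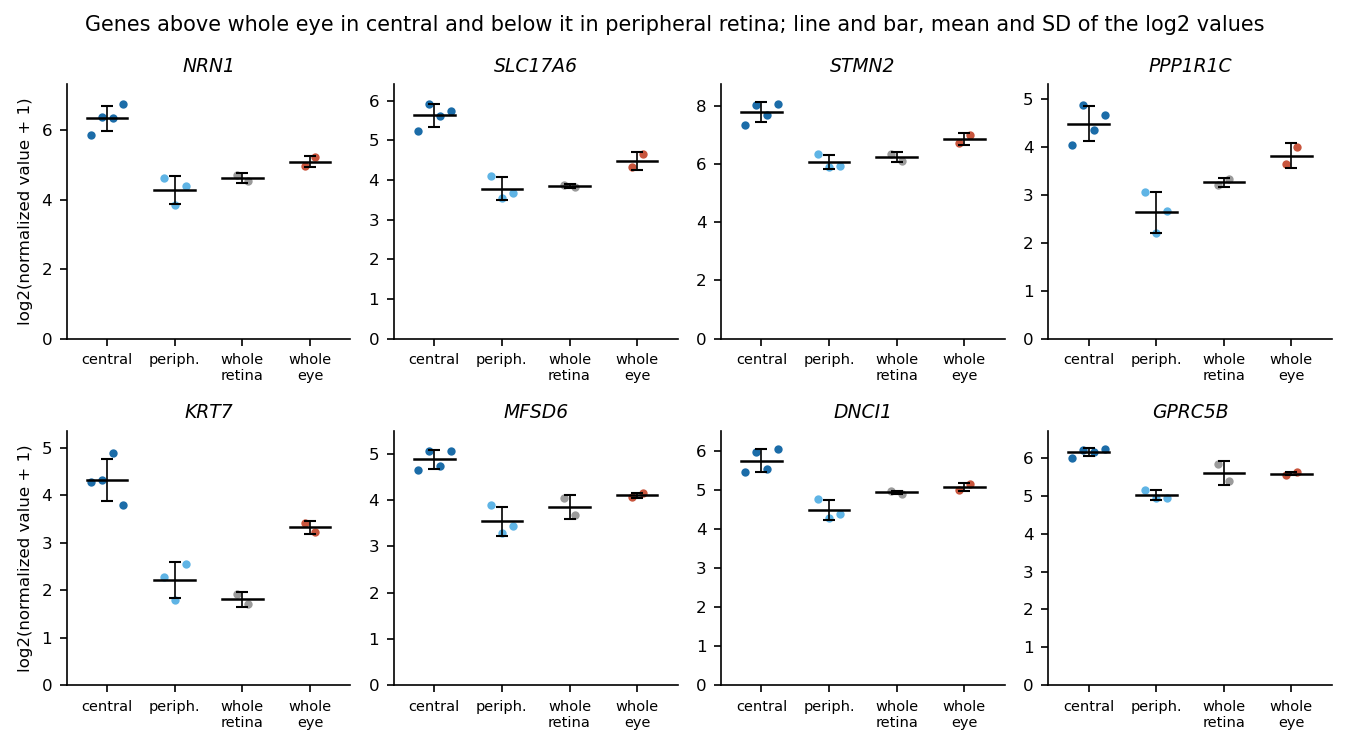
Each panel shows 1 gene, with log2(normalized value + 1) on the vertical axis, 1 point per library, and the mean and SD of each group. In all 8 genes the 4 central libraries have the highest mean and the peripheral mean lies below that of whole eye.

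Of 10 Müller glia genes tested, 1 was higher and 2 were lower in the average of the regions, with a median of -0.21, which was 0.05 after quantile normalization. In central retina 5 were lower and 1 higher (median -0.51), and in peripheral retina 1 was lower and 0 higher (median 0.23). Among all tested genes 18.2% were higher and 32.5% lower in the average of the regions. Those shares were 21.0% and 34.2% in central retina and 12.3% and 27.6% in peripheral retina. The average and peripheral counts of the Müller glia list did not exceed them. Their summed level was 1418 to 1772 in central retina, 2418 to 2897 in peripheral retina and 2590 and 2708 in whole eye. RLBP1, the retinal-binding protein shared by Müller glia and pigment epithelium, was at 191, 221, 202 and 185 in central retina, 459, 356 and 517 in peripheral retina and 582 and 668 in whole eye. All regional libraries were below both whole eyes (-1.07 ± 0.15; limma adjusted p = 0.000118). WIF1, a Wnt inhibitor, was lower on average (-0.69 ± 0.13), with central libraries at 142 to 189 and peripheral libraries, at 469.6 to 516, overlapping the whole eyes at 455 and 486. It did not pass after quantile normalization (limma adjusted p = 0.125) or with equal library weights (0.21). GLUL, the glutamine synthetase that defines these glia, did not pass (-0.20 ± 0.14; limma adjusted p = 0.244). SOX2, a transcription factor of glia, was higher by 0.36 ± 0.12 (limma adjusted p = 0.0303), and lost that call under 5 of the 9 settings that leave out 1 library, including each whole eye (0.0751 and 0.174).

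Pigment epithelium genes were lower in regional retina without exception, 11 of 11 tested, with a median of -2.06. RPE65, the isomerase that remakes the visual chromophore, had 4.48, 6.35, 5.35 and 6.40 in central retina, 7.01, 7.48 and 6.18 in peripheral retina and 261 and 286 in whole eye. It was 43.6-fold higher in whole eye (-5.25 ± 0.14; limma adjusted p = 5.16e-10). TTR, the transthyretin that carries retinol and thyroid hormone, had 33.8 to 95.1 in central retina and 227 to 345 in peripheral retina against 1393 and 1591 (-3.51 ± 0.31). The potassium channel KCNJ13 (-3.21 ± 0.23), the opsin RGR (-2.29 ± 0.22) and the tight junction gene CLDN19 (-2.06 ± 0.17) showed the same gradient, with peripheral libraries between the central libraries and whole eye. In bulk tissue, fewer cells of a type and less RNA per cell cannot be told apart.

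Melanin genes, made by pigment epithelium and by melanocytes of choroid and iris, were lower in 9 of 9 tested, with a median of -3.47. MLANA, a melanosome protein, had at most 0.17 in central retina and 3.17 to 4.19 in peripheral retina, against 203 and 152 in whole eye (-6.30 ± 0.13; limma adjusted p = 1.07e-10). TYR (-5.18 ± 0.16), GPNMB (-5.08 ± 0.14), TYRP1 (-3.47 ± 0.29) and SLC45A2 (-3.10 ± 0.13), which make, line or supply the melanosome, were lower in both regions. SILV, the older symbol of the melanosome matrix gene PMEL and not counted in the list, fell by 6.75 on the log2 scale. Summed over the 9 genes, the level was 26.0 to 46.2 in central retina, 89.0 to 105.0 in peripheral retina and 1086 and 813.4 in whole eye.

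In the retinoid cycle, the shuttle of vitamin A between photoreceptors and pigment epithelium, 8 of 12 genes were lower and 2 higher, with a median of -1.35. The higher ones were ABCA4 (0.62 ± 0.16) and RBP3 (1.10 ± 0.23), the retinoid flippase of photoreceptor discs and the carrier between the cell layers, which photoreceptors make. ABCA4 lost its call without whole eye replicate 2 (limma adjusted p = 0.0822). Among retinoic acid genes 7 of 10 were lower and 2 higher. ALDH1A1, which makes retinoic acid, had 1.34 to 2.00 in central retina and 5.84 to 8.36 in peripheral retina against 265 and 275 (-5.92 ± 0.17; limma adjusted p = 8.3e-10). The related enzymes ALDH1A3 (-2.95 ± 0.21) and ALDH1A2 (-2.67 ± 0.14) were lower and the receptors RARA (0.72 ± 0.13) and RXRA (0.48 ± 0.13) were higher, the latter not without whole eye replicate 2 (limma adjusted p = 0.146). Wnt inhibitors and BMP genes were lower in 8 of 12, among them SFRP4 (-6.00 ± 0.17), BMP4 (-3.23 ± 0.20) and DKK2 (-2.17 ± 0.12).

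**Figure D3:**
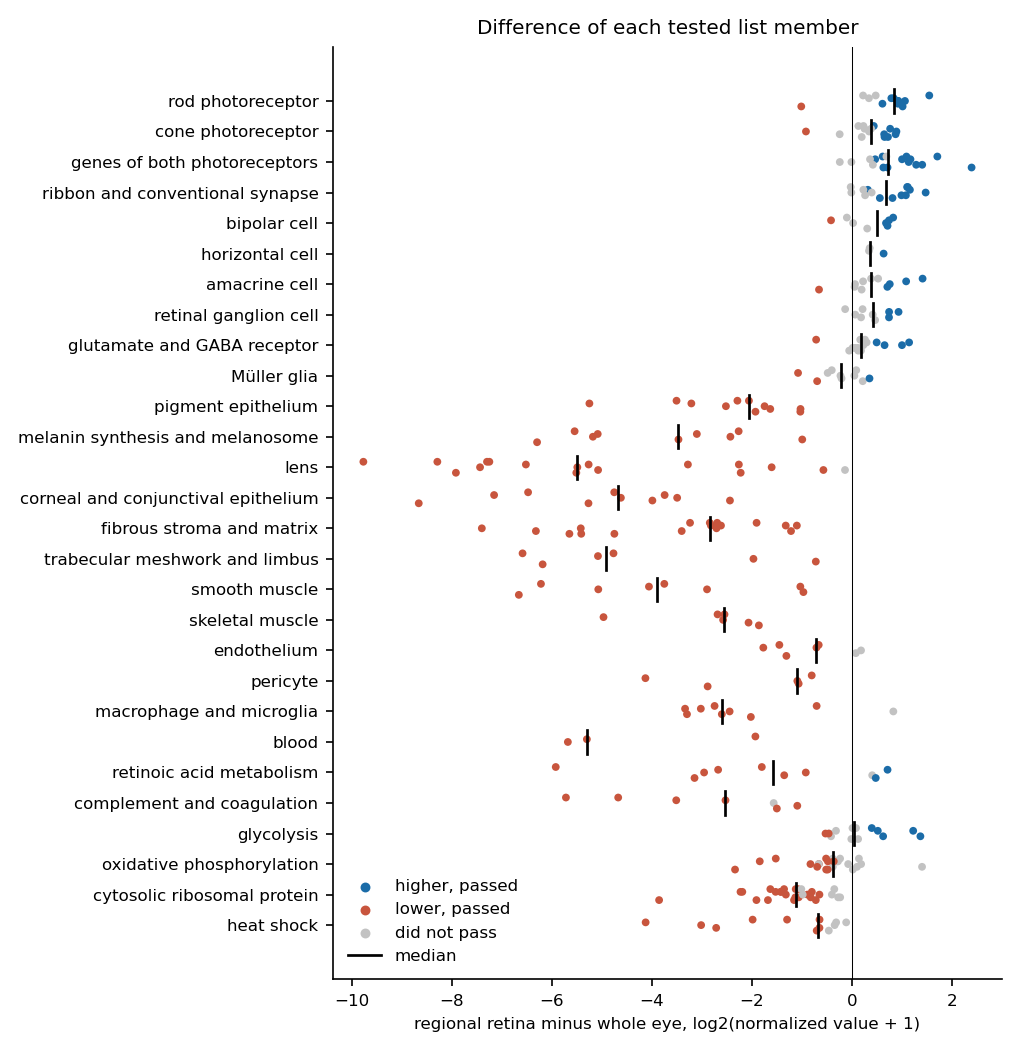
Each point is 1 tested member of a gene list, placed by its difference between regional retina and whole eye in log2(normalized value + 1); the bar is the median of the list and colours mark the limma calls. Lists of retinal neurons have medians from 0.19 to 0.84, and lists of pigment, lens, surface, stroma, muscle and blood cells have medians from -5.49 to -2.06.

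Lens genes included the largest difference of the comparison, that of CRYBB2. Of 17 tested, 16 were lower and none higher, with a median of -5.49. CRYBB2, a beta crystallin, had 0.34 to 2.58 in the 7 regional libraries, 406 and 252 in whole retina and 1576 and 1685 in whole eye, a difference of -9.77 ± 0.31 (limma adjusted p = 1.63e-09). CRYGS (-8.29 ± 0.26), CRYBA4 (-7.92 ± 0.17) and CRYBA1 (-7.44 ± 0.22), other structural crystallins, did not exceed 3.13 in a regional library. The lens filament genes BFSP1 (-7.30 ± 0.11) and BFSP2 (-6.52 ± 0.14) did not exceed 0.43 in a regional library. LIM2, a fiber cell membrane protein, was listed at 0 in 5 regional libraries, at 0.03 and 0.14 in the other two and at 159 and 152 in whole eye.

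The epithelium of cornea and conjunctiva was lower in 10 of 10 genes tested, with a median of -4.69. KRT12, the keratin that marks the corneal surface, had 0.07 to 2.48 in regional libraries, 0.93 and 28.2 in whole retina and 569.9 and 542 in whole eye (-8.66 ± 0.75; limma adjusted p = 3.68e-06). The highest regional value was in peripheral retina replicate 3. KRT4, a keratin of wet surfaces, was listed at 0.05 or less in every regional library and at 168 and 125 in whole eye (-7.16 ± 0.21). TRIM29 (-5.27 ± 0.15), the junction gene PERP (-4.62 ± 0.18) and the desmosome gene DSP (-3.99 ± 0.15) were lower too. AQP5, the water channel of lacrimal gland and cornea, differed by -5.86 ± 0.28. With LYZ, the antibacterial lysozyme (-1.84 ± 0.36), both gland genes tested were lower.

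Stroma, which forms sclera, cornea and choroid, was lower in 17 of 17 genes tested, with a median of -2.84. DCN, the proteoglycan decorin, had 0.08 to 1.77 in regional libraries, 116 and 201 in whole retina and 266 and 215 in whole eye (-7.40 ± 0.26; limma adjusted p = 4.26e-09). The collagens COL1A2 (-6.32 ± 0.22) and COL1A1 (-5.42 ± 0.26) and the proteoglycan OGN (-5.65 ± 0.20) were lower too. S100A4, a calcium-binding protein of fibroblasts and leukocytes (-7.57 ± 0.16), and the imprinted transcript H19 (-7.31 ± 0.25) were among the 12 largest downward under the same conditions. Genes of the trabecular meshwork and limbus were lower in 6 of 6. MYOC, the glaucoma gene myocilin, had 0.06 to 0.35 in central retina and 1.39 to 1.77 in peripheral retina against 141 and 194 (-6.59 ± 0.15). MGP (-6.18 ± 0.35), ANGPTL7 (-5.08 ± 0.39) and ABI3BP (-4.77 ± 0.20), secreted proteins of the outflow tissue, were lower by similar amounts.

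Smooth muscle of iris, ciliary body and vessels was lower in 8 of 8 genes, with a median of -3.90. ACTA2, its actin, had 5.21 to 8.91 in regional libraries and 817 and 343 in whole eye (-6.22 ± 0.27; limma adjusted p = 1.52e-08). MYH11, its myosin, had 0.81 to 1.15 against 259 and 156 (-6.66 ± 0.19). DES (-5.07 ± 0.24) and ACTG2 (-4.06 ± 0.19) followed. The 2 whole eyes were unlike each other here, since replicate 1 was above replicate 2 in 8 of 8 smooth muscle genes. Skeletal muscle genes were lower in 6 of 6, with a median of -2.56, and replicate 1 again had the higher value in 6 of 6. Their summed level was 252 in whole eye replicate 1, 70.5 in replicate 2 and 16.1 to 27.8 in regional retina. MB, the oxygen store myoglobin, was listed at 0 in 5 regional libraries and at 46.8 and 19.9 in whole eye (-4.97 ± 0.23). TNNI1 (-2.68 ± 0.41), MYH1 (-2.57 ± 0.24) and ACTA1 (-2.55 ± 0.40), contractile proteins, were also lower.

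Vessel genes were lower in part. Of 7 endothelial genes, 5 were lower, with a median of -0.71, and 3 were lower after quantile normalization. The other 2 did not pass, KDR with means of 38.3 in regional retina and 35.1 in whole eye and ESAM with 22.4 and 19.4. In central retina alone 1 gene was higher than whole eye. The summed endothelial level overlapped, at 53.5 to 80.6 in regional libraries and 77.8 and 72.6 in whole eye. PECAM1, an adhesion molecule of vessel lining, had 1.55 to 2.45 in regional libraries and 6.57 and 6.22 in whole eye (-1.31 ± 0.22; limma adjusted p = 0.000457). VWF (-1.77 ± 0.21), the clotting factor carrier, and CDH5 (-1.45 ± 0.15), the endothelial cadherin, were lower by more. Pericyte genes were lower in 5 of 5, led by the channel KCNJ8 (-4.13 ± 0.23) and RGS5 (-2.88 ± 0.24). Blood genes were lower in 3 of 3. HBB, the beta globin, had 14.3 to 65.3 in regional libraries and 1495 and 2492 in whole eye (-5.68 ± 0.56; limma adjusted p = 9.03e-06). HBA2 (-5.30 ± 0.55) and ALAS2 (-1.93 ± 0.11), which makes haem in red cells, were lower too.

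Most tested genes of nerve and optic nerve glia and of immune cells were also lower. Among oligodendrocyte genes 4 of 5 were lower, among them the myelin genes MOBP (-2.90 ± 0.32), MAG (-1.56 ± 0.25) and MOG (-1.17 ± 0.22). Whole eye replicate 1 was above replicate 2 in 5 of 5. MOBP was listed at 0 in 5 regional libraries. Schwann cell genes were lower in 3 of 3, the myelin protein PMP2 (-4.13 ± 1.04), the transcription factor SOX10 (-3.50 ± 0.26) and the cadherin CDH19 (-1.10 ± 0.11). PMP2 lost its call without whole eye replicate 1 (limma adjusted p = 0.0579). In the astrocyte list 2 of 3 were lower. GJA1, the gap junction protein of astrocytes and of pigment and lens epithelium, had 0.57 to 1.32 in central retina and 9.5 to 11.4 in peripheral retina against 127 and 112 (-4.66 ± 0.16). ALDH1L1 differed by -1.12 ± 0.19. Of 9 macrophage and microglia genes 8 were lower, with a median of -2.60. The other, P2RY12, did not pass and lay on the other side, at a difference of 0.83. CD74, the chaperone of antigen-presenting molecules, had 16 to 37.5 in regional libraries, 283 and 216 in whole eye, and 1149 and 308 in whole retina (-3.30 ± 0.37 against whole eye; limma adjusted p = 2.89e-05). The immune signalling adapters FCER1G (-3.33 ± 0.21) and TYROBP (-2.60 ± 0.27) were lower too. Mast cell genes were lower in 3 of 3. HDC, which makes histamine, differed by -2.41 ± 0.19 and the stem cell factor receptor KIT by -0.83 ± 0.17. CPA3, a protease of mast cell granules, was listed at 0 in all 7 regional libraries and at 2.89 and 0.52 in whole eye. The lymphocyte and fat cell lists had 1 tested gene each, and neither passed.

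Complement and coagulation genes were lower in 6 of 7, with a median of -2.53. A2M, a broad protease inhibitor, had 9.58 to 21.5 in regional libraries, 833 and 729 in whole eye and 1506 and 1654 in whole retina (-5.72 ± 0.18 against whole eye; limma adjusted p = 1.56e-09). The complement factors CFB (-4.67 ± 0.26) and C1S (-2.53 ± 0.26) and the complement inhibitor SERPING1 (-3.51 ± 0.18) were lower as well.

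**Figure D4:**
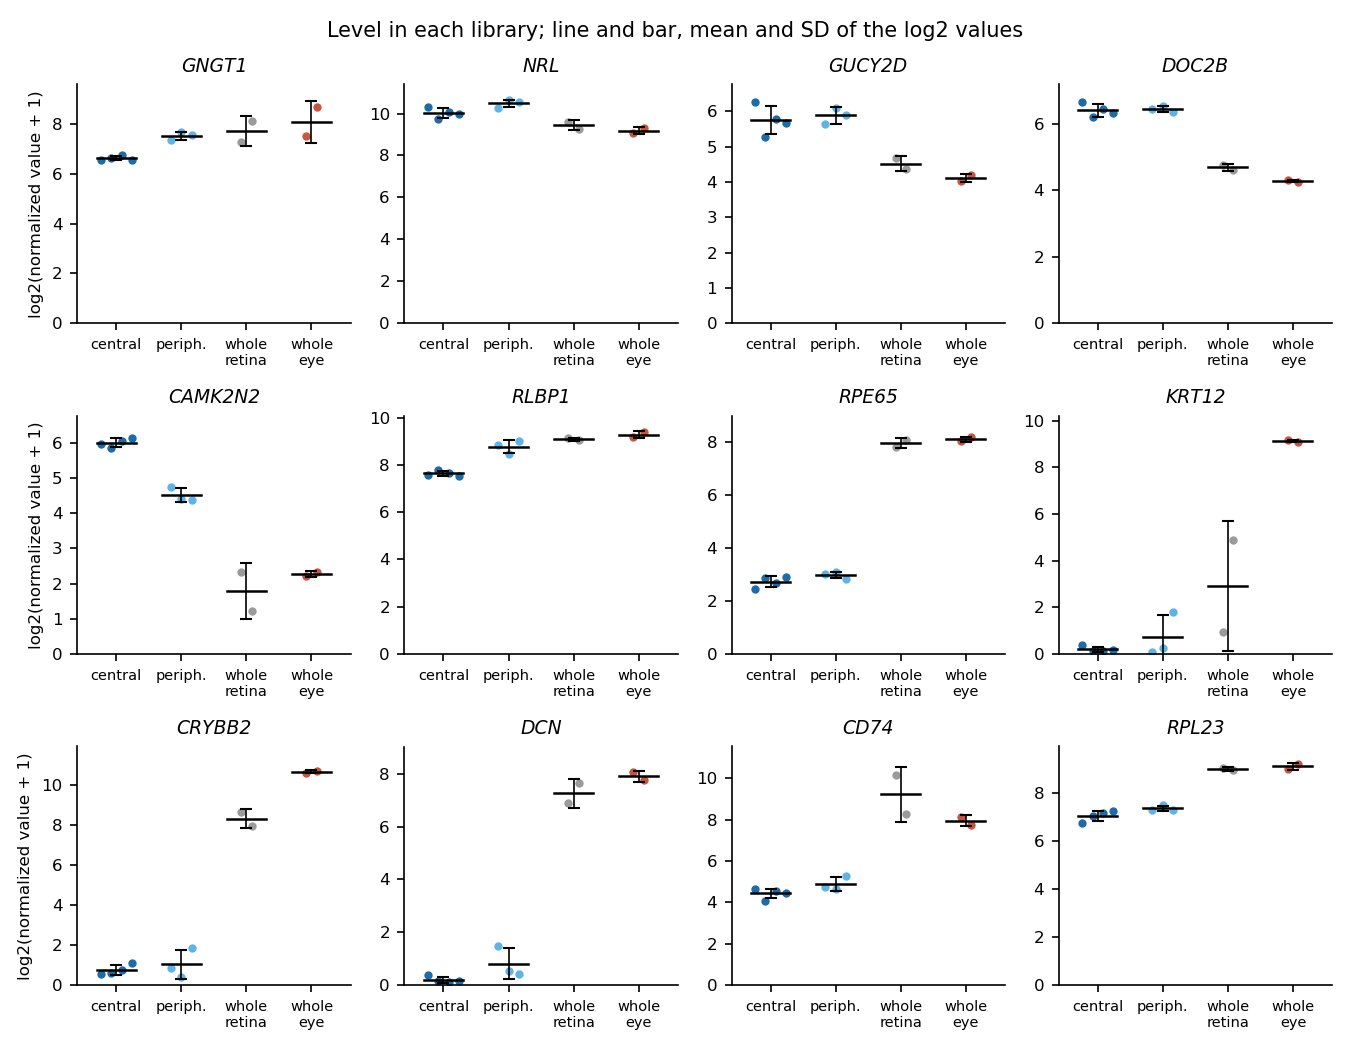
Each panel shows 1 gene, with log2(normalized value + 1) on the vertical axis, 1 point per library, and the mean and SD of each of the 4 groups. GNGT1 overlaps between peripheral retina and whole eye, NRL, GUCY2D and DOC2B are higher in every regional library than in whole eye, and the whole retina libraries lie near whole eye for RPE65, DCN and RPL23.

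Housekeeping groups did not move alike. Of 14 glycolysis genes, 5 were higher and 2 lower, with a median of 0.05. In central retina 6 were higher and 1 lower (median 0.30), and in peripheral retina 1 was higher and 3 lower (median -0.28). The shares over all tested genes were 18.2% higher and 32.5% lower in the average of the regions. They were 21.0% and 34.2% in central retina and 12.3% and 27.6% in peripheral retina. The peripheral glycolysis counts did not exceed those shares. TPI1, a triose isomerase, had 42.5 to 59.5 in central retina and 21.2 to 29.8 in peripheral retina against 14.4 and 11.9 (1.38 ± 0.16; limma adjusted p = 2.77e-05). The hexokinases HK2 (1.23 ± 0.35) and HK1 (0.40 ± 0.13) and the neuronal enolase ENO2 (0.63 ± 0.18) were higher, and the lactate dehydrogenase LDHA (-0.52 ± 0.16) and the glucose transporter SLC2A1 (-0.46 ± 0.13) were lower. Leaving out either whole eye gave 1 higher and 0 lower glycolysis genes, the calls on HK2 (limma adjusted p = 0.0911 and 0.064, without replicate 1 and 2), HK1 (0.0638 and 0.165), ENO2 (0.0583 and 0.118), LDHA (0.0862 and 0.0823) and SLC2A1 (0.0785 and 0.0524) being lost. Under the 3 other scalings 0 genes were lower. Respiratory chain genes encoded in the nucleus were lower in 11 of 23, with 0 higher and a median of -0.38, but in 5 under each of the 3 other scalings, 5 without whole eye replicate 1 and 7 without replicate 2. Of all tested genes 32.5% were lower as deposited, and 2529 to 2988 of 11933 were lower under the 3 other scalings. The respiratory chain count under those scalings, 5 of 23, was near that background. SDHC (-2.33 ± 0.19), COX7C (-1.84 ± 0.21) and COX6C (-1.52 ± 0.15), subunits of succinate dehydrogenase and cytochrome oxidase, were the clearest differences.

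Cytosolic ribosomal protein genes were lower in 21 of 27, with 0 higher and a median of -1.12. RPL23 had 106 to 178 in regional libraries, 524 and 491 in whole retina and 511 and 586 in whole eye (-1.91 ± 0.14; limma adjusted p = 8.69e-07). RPLP1 differed by -1.68 ± 0.14. Heat shock genes were lower in 8 of 12, with a median of -0.67. CRYAB, a small heat shock protein abundant in lens and muscle, had 22.2 to 34.2 in central retina and 82.5 to 105 in peripheral retina against 772 and 1091 (-4.12 ± 0.18; limma adjusted p = 1.82e-08). HSPB1 (-3.01 ± 0.21), HSPB8 (-2.71 ± 0.27) and the mitochondrial chaperonin HSPE1 (-1.98 ± 0.20) were lower too. Of 8 immediate early genes, which respond to stimulation within minutes, 1 was lower, ATF3 (-0.79 ± 0.25), a call lost without whole eye replicate 1 (limma adjusted p = 0.272). Intraflagellar transport genes, which build cilia, showed 3 of 14 higher and 2 lower. Over all tested genes 18.2% were higher and 32.5% lower. The counts of the immediate early, intraflagellar transport and cell cycle lists are to be read beside those shares. IFT140 (0.78 ± 0.14), IFT172 (0.38 ± 0.14) and IFT122 (0.35 ± 0.14) were higher, and IFT57 (-0.55 ± 0.13) and IFT52 (-0.42 ± 0.16) were lower. Of these, IFT140 alone passed without whole eye replicate 2 (limma adjusted p = 0.331, 0.419, 0.0785 and 0.132 for the others, in that order), and without other single libraries IFT172, IFT122 and IFT52 were also lost. Of 10 cell cycle genes CCNA2 was higher (0.49 ± 0.17) and TYMS lower (-1.10 ± 0.30), and neither passed without whole eye replicate 1 (limma adjusted p = 0.0945 and 0.0726) or replicate 2 (0.153 and 0.0599).

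Whole retina served as the second reference for the same genes. Regional retina was higher than whole retina for 1885 genes (15.8%) and lower for 3393 (28.4%), with a median of -0.07 over all genes. Both comparisons share the 7 regional libraries and are given side by side. Stroma was lower than whole retina in 17 of 17 genes (median -3.46), smooth muscle in 8 of 8 (-4.25), pigment epithelium in 11 of 11 (-2.37), melanin in 9 of 9 (-3.16), trabecular meshwork in 6 of 6 (-5.04) and complement in 7 of 7 (-3.67). The libraries labelled whole retina thus held markers of pigment cells, stroma and muscle at levels near those of whole eye. The summed smooth muscle level was 1480 and 1782 in whole retina, 1469 and 757 in whole eye and 46.8 to 63.9 in regional retina. Surface and lens markers were intermediate. The summed corneal level was 27.6 and 83.1 in whole retina, 1589 and 1287 in whole eye and 4.13 to 15.5 in regional retina. For lens the sums were 635.6 and 451.3, 3842 and 3960, and 11.3 to 38.3. Skeletal muscle markers were at 15.1 and 12.5 in whole retina, below the lowest regional library, and 2 of 6 were lower and 1 higher in regional retina than in whole retina.

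Photoreceptor and synapse genes were also set against the second reference. Compared with whole retina, 8 of 13 rod genes (median 0.53), 7 of 15 cone genes (0.46), 11 of 17 genes of both photoreceptors (0.58) and 10 of 14 synapse genes (0.43) were higher in regional retina. Ribosomal protein genes were lower than whole retina in 19 of 27 (median -1.03), respiratory chain genes in 8 of 23 (-0.30) and heat shock genes in 8 of 12 (-0.62).

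**Figure D5:**
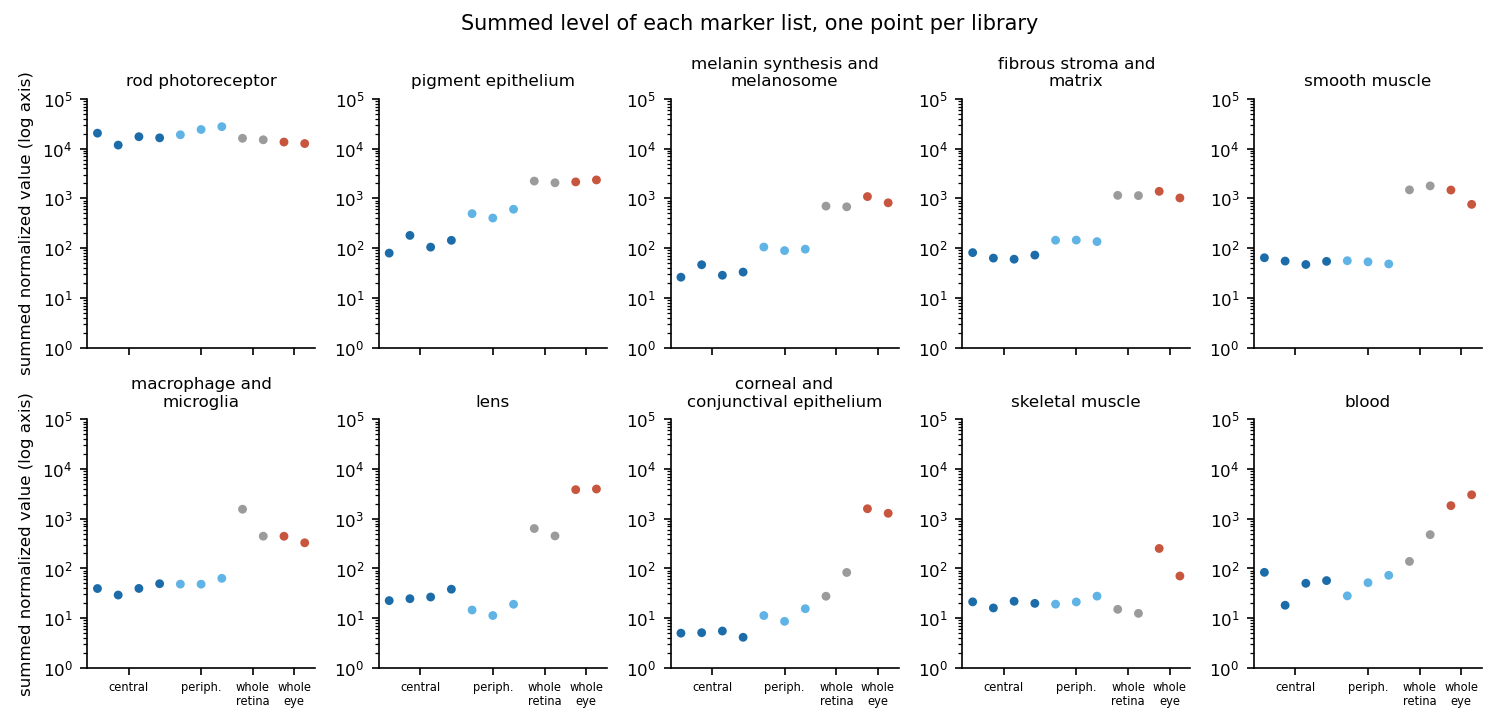
Each panel sums the normalized values of 1 marker list in each of the 11 libraries, on a log axis, with 1 point per library coloured by tissue. Rod levels overlap between tissues, pigment, stroma and smooth muscle levels are high in both whole retina and whole eye, and corneal and skeletal muscle levels are high in whole eye.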

How the data were processed

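RNA sequencing of macaque eye tissue was taken as deposited. The authors deposited 1 table per library, whose 11 tables hold, by their headers, a normalized signal for every gene. The submitters' processing notes name the aligner GSNAP and the counting tool HTSeq, with no version. How values were normalized, the genome build and the read depth are unknown here. Of 13083 entries per table, 27 without a value and 61 exact duplicates were left out. Names were used as deposited, and 9490 of 12976 matched RefSeq symbols for the species. One limma model (version 3.58.1, R 4.3.3, variance trend) was fitted to log2(value + 1) over all 11 libraries in 4 groups, with Benjamini-Hochberg adjustment over 11933 entries. It was checked on simulated tables. Named genes were the 12 largest differences each way (called, higher group mean of 10 or more, regional libraries all on 1 side of both whole eyes, with a gene symbol, and no repeated or shared-start names), up to 4 members and 3 exceptions per list, a set of 20 markers and 8 genes opposite in the 2 regions. The members of a list were those with the smallest p in the direction with more calls, so they do not stand for the whole list. Some list members that did not pass are also named. The comparison, the 40 gene lists and the rules were chosen with earlier results of these data known. Figures were drawn with matplotlib 3.10.9, and tables made with pandas 2.3.3, numpy 2.4.6 and Python 3.11.15. The alternatives were other pseudocounts, filters, scalings, weights and fits, a replicate block and leaving out each library. Promoter sequences were not used, and some genes that the naming rule selects are not reported here.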

Additional observations from a re-analysis of the deposited data

Results flagged for a closer look

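Central retina was the only group with enough libraries to look for 1 that stands apart. Of 165 named genes checked, 14 had a central library whose gap to the next exceeded Dixon's 95% limit for 4 values. Chance gives such a gap in about 1 of 20 groups. The library was above the others for CRYBA4 in replicate 4 (0.55, the others 0.13 to 0.19), KRT4 in replicate 4 (0.04, the others at 0), GRIK1 in replicate 2 (44.9, the others 31 to 33), NEFM in replicate 4 (391, the others 219 to 237), CLDN19 in replicate 2 (1.28, the others 0.67 to 0.74), KCNJ13 in replicate 2 (2.71, the others 0.77 to 1.05), MB in replicate 1 (0.05, the others at 0), ALDH1L1 in replicate 3 (1.56, the others 0.99 to 1.07), ALAS2 in replicate 1 (0.16, the others 0.03 to 0.04), CACNA1F in replicate 1 (94, the others 77.6 to 80.1), GRIA1 in replicate 2 (5.17, the others 4.05 to 4.18) and KIT in replicate 2 (11.1, the others 6.72 to 6.88). It was below them for WIF1 in replicate 4 (142, the others 182 to 189) and SOX10 in replicate 3 (0.52, the others 0.67 to 0.7).

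The difference from whole eye was itself different in the 2 regions (limma, central minus peripheral) for 60 of the 165 genes. These include the 8 genes chosen for lying on opposite sides of whole eye, so the count is in part set by that choice; over all genes 12.5% were higher and 8.76% lower in central than in peripheral retina. In log2 units it was larger upward, or smaller downward, in central retina for 24 genes: NEFM (2.63), SNCG (2.35), NEFL (2.33), KRT7 (2.11), NRN1 (2.05), SLC17A6 (1.85), PPP1R1C (1.85), STMN2 (1.73), CAMK2N2 (1.49), MFSD6 (1.34), DNCI1 (1.27), SCRT2 (1.27), PCP2 (1.26), GPRC5B (1.14), B3GAT1 (1.07), OPN1SW (1.02), TPI1 (0.921), GLRA1 (0.818), ATF3 (0.777), SLC24A2 (0.757), KCNJ8 (0.743), GABRB2 (0.624), GRIA2 (0.596) and RPS6KL1 (0.456). It was below the peripheral difference for 36 genes: GPNMB (-3.01), KCNJ13 (-2.63), GJA1 (-2.55), SILV (-2.30), TTR (-2.22), RGR (-2.11), MLANA (-2.10), ALDH1A3 (-1.75), CRYAB (-1.73), TYRP1 (-1.68), SFRP4 (-1.64), GRIA1 (-1.63), ALDH1A1 (-1.63), CFB (-1.61), SLC45A2 (-1.54), WIF1 (-1.49), TYR (-1.44), SERPING1 (-1.30), BMP4 (-1.23), CLDN19 (-1.18), MYOC (-1.16), RLBP1 (-1.13), S100A4 (-1.02), KIT (-0.908), GNGT1 (-0.905), ALDH1L1 (-0.803), SAG (-0.789), OGN (-0.725), ABCA4 (-0.691), PERP (-0.642), CCNA2 (-0.603), DSP (-0.519), SLC24A1 (-0.482), SLC17A8 (-0.428), IFT57 (-0.427) and IFT122 (-0.416).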

How the results depend on the processing

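The number of genes higher in regional retina was 2168 and the number lower 3878, and over the 22 alternatives both moved by less than 1.5 times except in 3 values. After quantile normalization 3984 were higher and 2529 lower, and 1219 were higher when each region had to pass alone; the cause was not tested. Leaving out 1 library gave 1485 to 2193 higher and 2995 to 4072 lower genes, both lowest without a whole eye, where 1 library is assumed to vary like the other groups. Deviations of same-numbered libraries correlated at -0.189 to 0.357. Differently numbered libraries were not correlated for comparison, so whether the replicate numbers pair the libraries cannot be told. A replicate block gave 2151 higher and 3789 lower genes. Of 170 calls on named genes, 127 kept their direction and passed under every alternative run, and 43 were lost under at least 1. Most named genes were picked for a small p or a large difference in these data, so these counts do not describe other genes. GLUL, which did not pass, reversed to 0.0885 after quantile normalization. Of 49 list counts, 18 stayed within 1.5 times everywhere. Read depth is unknown, so no counting error could be given, and 2 whole eyes limit the precision of every difference.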
